A study of Mus musculus with 6 samples.

Results

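The early mevalonate pathway enzymes are 9 genes, Acat2, Hmgcs1, Mvk, Pmvk, Mvd, Idi1, Fdps, Fdft1 and Sqle, chosen by name and ordered by their step on the way from acetyl-CoA to squalene epoxide. They are 9 of the 24421 gene symbols counted in sciatic nerve, the main nerve of the mouse hind limb. RNA was sequenced from 3 nerve samples labelled YAP/TAZ-DBL-cKO, called cKO here, and from 3 labelled YAP/TAZ-WT, called WT. The design text describes the controls as wild-type mice. YAP and TAZ, encoded by Yap1 and Wwtr1, are transcriptional co-activators of the Hippo pathway. The promoter or Cre that drives the deletion, the deleted exons, and the strain and age of the mice are not stated in the sources used here, nor is it stated whether nerves were pooled. The series' title sets the comparison in the context of peripheral myelination by Schwann cells.

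The mevalonate pathway builds isoprenoid units from acetyl-CoA. Farnesyl diphosphate is its branch point, from which carbon goes to squalene and on to cholesterol, or to ubiquinone, dolichol and the lipid anchors of prenylated proteins. Myelin is rich in cholesterol, and Schwann cells make much of it themselves while they myelinate. The transcription factor SREBP-2, encoded by Srebf2, drives most genes of the route and works together with NF-Y, which binds CCAAT boxes.

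Gene counts per library ranged from 24651262 to 47044158, and every WT library was deeper than every cKO library. Neither targeted gene was called lower. Yap1 stood at -0.20 ± 0.08 on the log2 scale (SE, n = 3 per group, edgeR adjusted p = 0.145), and Wwtr1 rose (log2 0.40 ± 0.09, edgeR adjusted p = 0.0208), a call lost without cKO 3, WT 1 or WT 2, at log2 values of 0.37 to 0.44. It was also lost with the skeletal muscle level as a covariate, where the value was larger and less precise (0.56 ± 0.18). Counts over whole genes do not check a partial deletion, so every direction here is drawn from the labels. Defining markers of the Schwann lineage were present in all 6 libraries, with Sox10 at 404.6 to 571.2 CPM (counts per 1000000 gene counts, scaled by edgeR's TMM factors). The 15 skeletal muscle markers summed to 4896 to 10720 CPM in cKO and to 490.8 to 1872 CPM in WT.

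Promoter sequence from RefSeq (GRCm38.p6) was found for 6 of the 9 genes, in 7 windows that end at the base before an annotated transcription start. They are shown here because the 9 genes moved together, and Hmgcs1, Mvd and Mvk were chosen to span a large, a middle and a small difference. Capitals mark matches to the sterol regulatory element core TCACNCCAC and to the NF-Y box CCAAT, on either strand, so that ATTGG is CCAAT read on the other strand. Each sequence runs 5′ to 3′ on the gene's own strand.
Hmgcs1, chr13:119690101-119690350, plus strand: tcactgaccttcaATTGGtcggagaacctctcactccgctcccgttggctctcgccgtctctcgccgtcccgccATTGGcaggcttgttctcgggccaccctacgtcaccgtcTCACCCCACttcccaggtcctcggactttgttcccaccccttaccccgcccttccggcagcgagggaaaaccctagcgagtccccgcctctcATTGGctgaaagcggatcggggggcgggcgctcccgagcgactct
Mvd, chr8:122443423-122443672, minus strand: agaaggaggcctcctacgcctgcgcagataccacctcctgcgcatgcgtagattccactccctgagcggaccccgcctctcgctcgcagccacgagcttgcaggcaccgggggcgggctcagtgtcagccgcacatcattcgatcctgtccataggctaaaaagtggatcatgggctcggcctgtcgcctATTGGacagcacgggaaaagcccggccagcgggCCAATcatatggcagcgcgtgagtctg
Mvk, chr5:114444061-114444268, plus strand: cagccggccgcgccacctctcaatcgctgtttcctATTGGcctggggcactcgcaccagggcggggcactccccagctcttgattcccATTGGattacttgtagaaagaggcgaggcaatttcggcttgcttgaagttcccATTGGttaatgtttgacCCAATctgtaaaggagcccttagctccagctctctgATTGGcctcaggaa
The Hmgcs1 window holds the sterol element core 137 bases before the start and 3 NF-Y boxes. In the Mvd window there are 2 NF-Y boxes, 60 and 27 bases before the start. The Mvk window holds 5. It was shortened to 208 bases because its far end lies in an exon of Mmab, a mitochondrial cobalamin enzyme gene that faces Mvk across this stretch.

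Over 250 bases before the start, the sterol element core was present in 1 of the 7 windows and in 1.04% of the 32536 distinct promoter windows of the reference table. The NF-Y box was present in 5 of 7 windows, against 33.8% of all windows. The windows without it were that of Acat2 and the Pmvk window at 89459321 to 89459570. Pmvk's other window held 1. The GC box GGGCGG was present in 5 of 7, against 33.0%. The TEAD element GGAATG was present in 0 of 7, against 12.6%. All motifs were searched on both strands. The Idi1 window lay wholly within annotated exons, and its NF-Y boxes, 45 and 14 bases before the start, lay in the part that overlaps Idi1 exons. Parts of the Acat2 window and of the Pmvk window at 89459321 to 89459570 overlapped exons of their own genes. These matches describe letters only.

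All 9 enzymes were lower in the cKO nerves. Every member passed the filter on low counts, every member was called lower, and in each of them all 3 cKO libraries lay below all 3 WT libraries. Among the 14789 genes tested, 6.17% were called lower and 15.8% had all cKO libraries below all WT libraries. The log2 fold changes of the members ran from -2.10 to -0.92 with a median of -1.66, while the median of all tested genes was 0.02. Together the 9 transcripts took 0.109% to 0.157% of gene counts in cKO and 0.4% to 0.501% in WT. In bulk nerve, fewer cells of a type and less RNA per cell cannot be told apart.

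**Figure D1:**
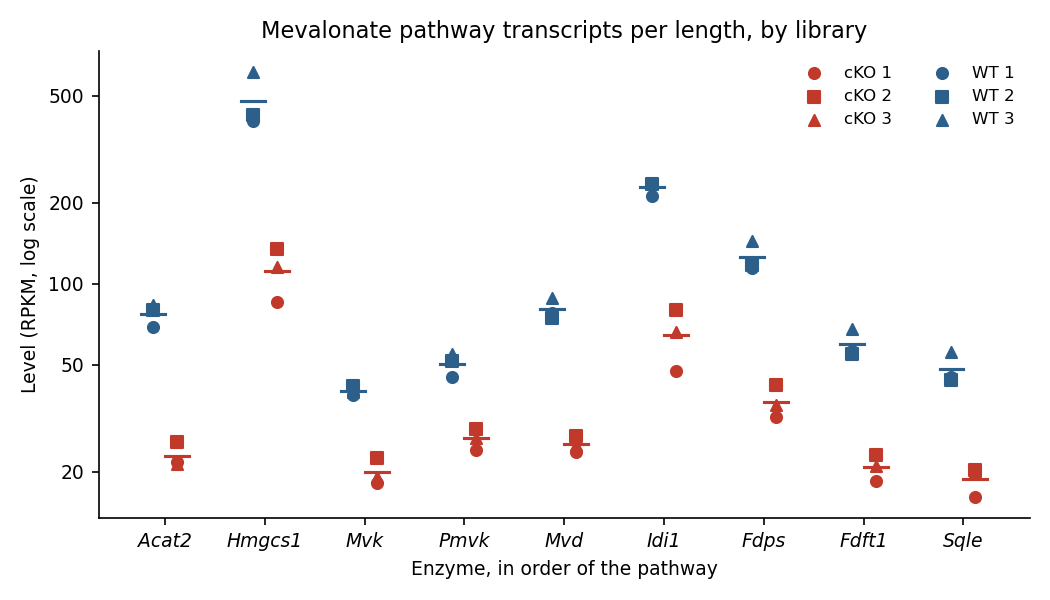
Level of each enzyme in RPKM (CPM per kilobase of annotated exon, log axis) in every library, with enzymes in pathway order and short lines at the group means. All 3 cKO libraries (red) lie below all 3 WT libraries (blue) for each of the 9 enzymes, and Hmgcs1 is highest in both groups.

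The route begins with Acat2 and Hmgcs1. Acat2 (chromosome 17, 12942890 to 12960747, minus strand) encodes the cytosolic thiolase that joins acetyl-CoA units into acetoacetyl-CoA. In cKO 1, 2 and 3 its level was 55.5, 65.7 and 54.4 CPM, against 175.9, 203.7 and 212.5 CPM in WT 1, 2 and 3. The highest cKO library thus stood well under the lowest WT library, by 2.68-fold. The difference was 3.37-fold (log2 -1.75 ± 0.11, SE, n = 3 per group, edgeR adjusted p = 0.000162). Acat3, a near-identical neighbouring copy with which Acat2 could share reads, was itself lower (log2 -1.95 ± 0.23, edgeR adjusted p = 0.00148). Summing both genes left Acat2's call in place. Acat3 held only 3.61 CPM in cKO and 13.8 CPM in WT on average, so the sum could hardly have lost that call. It does not show how reads shared by both copies were counted.

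Hmgcs1 (chromosome 13, 119690379 to 119708260, plus strand) encodes the cytosolic HMG-CoA synthase and had the largest fall of the 9. It stood at 394.2, 618.2 and 532.2 CPM in cKO 1 to 3 and 1852, 1953 and 2818 CPM in WT 1 to 3. The groups were far apart although Hmgcs1 varied more than most members within each, with cKO 1 lowest and WT 3 highest. Its level was 4.29-fold lower (log2 -2.10 ± 0.21, edgeR adjusted p = 0.00061). Hmgcs1 alone made up 37.5% to 40.9% of the members' counts in cKO and 45.5% to 51.9% in WT.

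Acat1, the mitochondrial thiolase, serves ketone body metabolism. It was not called (log2 0.10 ± 0.08, edgeR adjusted p = 0.518). In RPKM, Acat1 stood at 0.559 to 0.666 of Acat2 in the WT libraries and at 1.86 to 2.44 of it in the cKO libraries. The order of cytosolic and mitochondrial thiolase was therefore turned in all 3 cKO libraries. For this ratio the groups did not overlap (exact permutation test, two-sided p = 0.1, the least that 3 libraries against 3 can give). Acat2's own libraries were already 2.68-fold apart, so this ratio is no evidence beyond the fall of Acat2. The order was the same when lengths were taken from the longest annotated transcript, with Acat1 at 0.546 to 0.65 of Acat2 in WT and 1.81 to 2.38 in cKO.

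The kinases of the pathway, Mvk and Pmvk, had the smallest falls. Mvk (chromosome 5, 114444269 to 114460591, plus strand) encodes mevalonate kinase. Its level was 48.7, 60.3 and 51.0 CPM in cKO 1 to 3 and 103.4, 111.6 and 106.5 CPM in WT 1 to 3, which was 2.01-fold lower (log2 -1.01 ± 0.10, edgeR adjusted p = 0.000606). Both groups were tight, and the gap between the nearest libraries was 1.72-fold. Mmab, across the shared promoter, was lower by 1.41-fold (log2 -0.50 ± 0.13, edgeR adjusted p = 0.0377), a call lost without cKO 1, cKO 3 or WT 2 (log2 -0.39, -0.50 and -0.48) and with total counts (-0.37). It was also lost with the skeletal muscle level as a covariate, where the value was larger in size and less precise (-0.65 ± 0.26).

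Pmvk (chromosome 3, 89454541 to 89469013, plus strand) encodes phosphomevalonate kinase, which adds the next phosphate. It had 41.4, 49.6 and 46.0 CPM in cKO 1 to 3 and 77.5, 88.3 and 94.2 CPM in WT 1 to 3. No cKO library reached the WT range, but the gap of 1.56-fold was the narrowest of the 9. The fall was 1.9-fold (log2 -0.92 ± 0.11, edgeR adjusted p = 0.00118). The calls of Mvk and Pmvk were lost with the skeletal muscle level as a covariate (edgeR adjusted p = 0.0596 and 0.0963). Their log2 fold changes there were -1.07 ± 0.21 and -0.99 ± 0.22, about as large as with group alone and less precise.

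Mvd and Idi1 make the active isoprenoid units. Mvd (chromosome 8, 122433601 to 122443422, minus strand), the decarboxylase that yields isopentenyl diphosphate, stood at 44.2, 50.7 and 46.9 CPM in cKO 1 to 3 and 145.5, 138.9 and 164.9 CPM in WT 1 to 3. The cKO libraries were nearly level with each other, with a coefficient of variation of 6.85%. Mvd was 3.17-fold lower (log2 -1.66 ± 0.10, edgeR adjusted p = 0.000162).

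Idi1 (chromosome 13, 8885501 to 8892451, plus strand) encodes the isomerase that turns isopentenyl into dimethylallyl diphosphate. Its values were 166.3, 280.0 and 231.4 CPM in cKO 1 to 3 and 745.0, 821.9 and 833.2 CPM in WT 1 to 3. The WT libraries were close together, while the cKO libraries spanned 1.68-fold, the widest span of the 9 in that group. Idi1 was 3.54-fold lower (log2 -1.82 ± 0.17, edgeR adjusted p = 0.000606). Its paralogue Idi2 had 0 counts in all 6 libraries. With 3 counts taken as the limit of a count of 0, these depths allow up to 0.0638 to 0.122 counts per 1000000 gene counts, without TMM factors. Such limits cover counting error only.

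Fdps (chromosome 3, 89093588 to 89101959, minus strand) encodes farnesyl diphosphate synthase, at the branch point. It was measured at 134.3, 177.8 and 149.2 CPM in cKO 1 to 3 and 482.6, 494.2 and 607.5 CPM in WT 1 to 3. Again cKO 2 and WT 3 were the highest of their groups, and the groups were separated by 2.71-fold. Fdps was 3.44-fold lower (log2 -1.78 ± 0.14, edgeR adjusted p = 0.000247).

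Fdft1 and Sqle commit carbon to sterols. Fdft1 (chromosome 14, 63145150 to 63179578, minus strand) encodes squalene synthase. It stood at 78.0, 97.3 and 88.7 CPM in cKO 1 to 3 and 237.8, 231.9 and 287.2 CPM in WT 1 to 3, 2.87-fold lower (log2 -1.52 ± 0.12, edgeR adjusted p = 0.000273). Exons of Fdft1 overlap those of Ctsb on the opposite strand over 774 bases in GENCODE, and whether reads were counted by strand is not stated in the sources used here. Ctsb, a lysosomal protease gene, was not called (log2 0.10 ± 0.09, edgeR adjusted p = 0.575). Exons of Fdps overlap those of another protein-coding gene on the same strand over 1124 bases. Those of Hmgcs1 and Idi1 overlap exons of genes on the opposite strand over 557 and 323 bases. These overlapping genes of Fdps, Hmgcs1 and Idi1 are not among the counted symbols.

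Sqle (chromosome 15, 59315077 to 59331192, plus strand) encodes squalene epoxidase, the first enzyme of the route that uses oxygen. It had 89.8, 112.4 and 112.1 CPM in cKO 1 to 3 and 250.2, 242.8 and 310.3 CPM in WT 1 to 3. The groups were separate, by 2.16-fold. Sqle was 2.56-fold lower (log2 -1.35 ± 0.13, edgeR adjusted p = 0.000606).

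Levels of different enzymes were compared per length, in RPKM. In WT the order of mean levels was Hmgcs1 at 480.5 ± 115.6, Idi1 at 228.3 ± 13.7, Fdps at 125.5 ± 16.4, Mvd at 80.6 ± 7.28, Acat2 at 77.6 ± 7.50, Fdft1 at 59.7 ± 7.18, Pmvk at 50.6 ± 4.93, Sqle at 48.3 ± 6.67 and Mvk at 40.1 ± 1.55 RPKM (SD, n = 3). Libraries of Mvd and Acat2, of Fdft1 and Pmvk, and of Pmvk and Sqle overlapped, so their places were not distinct. In cKO the leading places were the same, with Hmgcs1 at 112.1 ± 24.6, Idi1 at 64.5 ± 16.3 and Fdps at 36.5 ± 5.25 RPKM. Behind them Pmvk took rank 4 in place of rank 7, at 26.7 ± 2.40 RPKM, and the other 5 lay between 18.9 ± 2.34 for Sqle and 25.4 ± 1.74 RPKM for Mvd, each overlapping its neighbour. The members' mean levels spanned a narrower range in cKO than in WT, and Hmgcs1 went from 40.3% to 32.2% of their summed RPKM.

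The proportions between consecutive members were then followed in every library. Mvd stood at 1.73, 1.45 and 1.61 times Pmvk in WT 1, 2 and 3 and at 0.984, 0.941 and 0.94 times Pmvk in cKO 1, 2 and 3. Mvd was thus above Pmvk in every WT library and below it in every cKO library, a change of -0.74 in log2 ratio. With lengths of the longest transcript the same ratio was 1.03 to 1.22 in WT and 0.665 to 0.695 in cKO, and its change does not depend on length. Mvk, the member after Hmgcs1, was 0.0649 to 0.0982 of Hmgcs1 in WT and 0.165 to 0.212 of it in cKO, a change of 1.09 in log2 ratio. Not every enzyme of the route is among the 9, so consecutive members need not be adjacent steps.

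Smaller shifts without overlap were seen for Fdft1 over Fdps (0.26 in log2 ratio) and for Sqle over Fdft1 (0.17). For Hmgcs1 over Acat2, Pmvk over Mvk, Idi1 over Mvd and Fdps over Idi1 the groups overlapped, with p-values from a two-sided exact permutation test of 0.2, 0.3, 0.4 and 0.7. The 4 ratios without overlap had p = 0.1 in the same exact test, the least that this number of libraries can give, and 0.2 after Benjamini-Hochberg adjustment over the 8 ratios. No ratio can pass a threshold of 0.05 by that test with 3 libraries against 3. Each change in ratio follows from the members' own fold changes given above, so the ratios are no evidence beyond those falls.

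**Figure D2:**
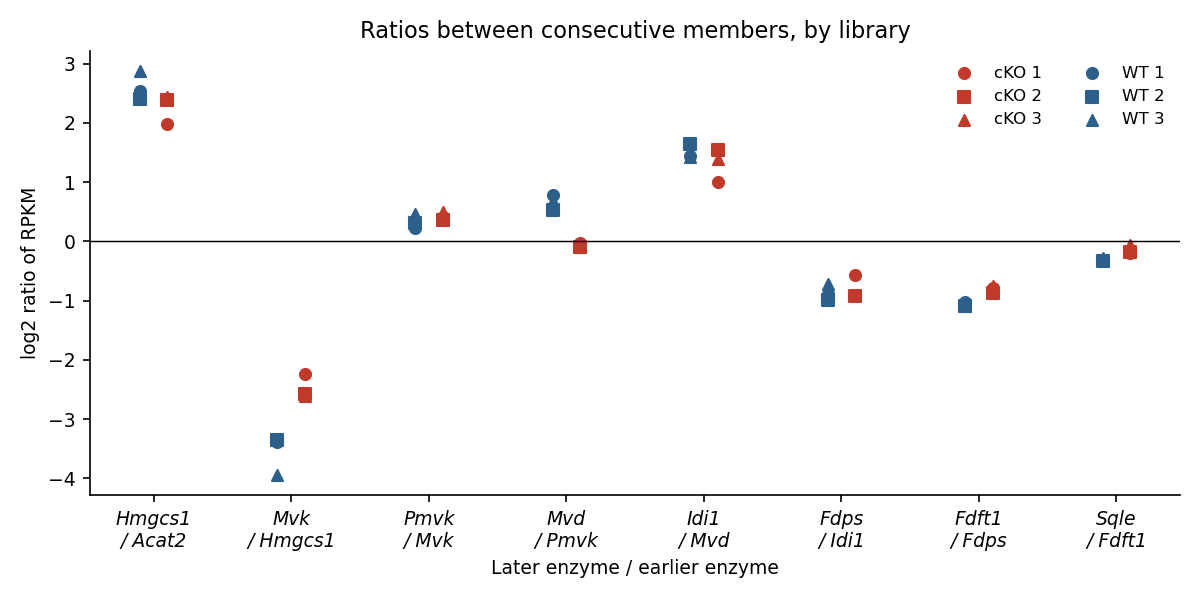
log2 ratio of RPKM of each member to the member before it, in every library. cKO (red) and WT (blue) are apart for Mvk over Hmgcs1, Mvd over Pmvk, Fdft1 over Fdps and Sqle over Fdft1, and the other 4 ratios overlap.

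Within the groups the members moved largely together. cKO 2 had the highest level of all 9 members among the cKO libraries, and cKO 1 the lowest of 8. WT 3 had the highest level of 8 members among the WT libraries. The members summed to 1052, 1512 and 1312 CPM in cKO 1 to 3 and 4070, 4286 and 5434 CPM in WT 1 to 3. The 11 myelin markers had the same order, at 20250, 33410 and 26490 CPM in cKO and 81950, 83170 and 115800 CPM in WT. All 11 were called lower, beside 6.17% of all tested genes, with a median log2 fold change of -1.77. Among them were Gjb1 (connexin 32), Mag and Mal.

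The 8 Schwann lineage markers, which are less tied to the myelin sheath, summed to 3077 to 3185 CPM in cKO and to 3210 to 3782 CPM in WT. Of these 8, Gpr37l1 was called lower and 0 higher, with a median log2 fold change of -0.08. Over all tested genes 6.17% were called lower and 4.77% higher. Gpr37l1 stood at -0.48 ± 0.10 and lost its call without cKO 2, cKO 3 or WT 2 and under the muscle covariate, at values between -0.49 and -0.47, so its size was kept and its SE was wider. Without WT 3 the lineage marker S100b was called higher (log2 0.55 ± 0.09, edgeR adjusted p = 0.00597). Sox10, the transcription factor of the lineage, stood at -0.17 ± 0.14 (log2, edgeR adjusted p = 0.522), which turned to 0.02 and 0.03 with the muscle or the adipocyte level as a covariate.

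Markers of other tissues separated some libraries. Of 15 skeletal muscle markers, 13 were called higher in cKO and 0 lower, while 4.77% of all tested genes were called higher. The list's median log2 fold change was 2.35, and Ttn, Tnnt3 and Tnnc2 came first in order of p. Their summed level was highest in cKO 2, the cKO library in which all members were highest, and lowest in WT 2. With this level as a covariate 7 of the 9 members were called lower, with a median log2 fold change of -1.83. The covariate, the mean of the markers' standardized log2 CPM, was 0.398 to 1.2 in cKO and -1.564 to -0.338 in WT. It did not overlap between the groups, so this fit cannot fully tell muscle level from group. After the marker genes of muscle and fat were taken out of the library sizes, all 9 were called.

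The 12 adipocyte markers, which matter here because fat cells also make lipids, summed to 545.5 to 765.4 CPM in cKO, to 208.5 and 216.1 CPM in WT 1 and WT 2 and to 838.8 CPM in WT 3. With all 6 libraries edgeR, DESeq2 and limma-voom each called 0 of them, and edgeR's unadjusted p was under 0.05 for 0. WT 3 decided this: without it Fabp4, Plin1 and Lipe were called higher in cKO (edgeR adjusted p = 0.000259, 0.00119 and 0.032). Their log2 values then went from 0.84, 1.24 and 0.48 to 1.83, 3.12 and 0.97. With this level as a covariate, and also without WT 3, all 9 members were called lower. Among 8 fibroblast markers Pi16 was called higher, beside 4.77% of all tested genes. Among 6 genes listed as perineurial markers edgeR called Itgb4 lower, beside 6.17% of all tested genes. The median log2 fold change of these 6 was 0.31, with 2 negative, so the call of Itgb4 is not read as a perineurial change. Which cells its reads came from was not tested. DESeq2 also called the perineurial Lypd2 higher (log2 1.17, DESeq2 adjusted p = 0.0448). Of 6 endothelial and 8 macrophage markers each of the 3 tools called 0, with 2 and 3 at an unadjusted edgeR p under 0.05. Here too WT 3 mattered. Without it the endothelial Cdh5, Pecam1 and Tek were called higher in cKO (log2 0.52, 0.58 and 0.65, edgeR adjusted p = 0.00877, 0.00936 and 0.0253), as were the macrophage genes C1qa, C1qb and Aif1 (log2 0.55, 0.46 and 0.81, edgeR adjusted p = 0.00662, 0.015 and 0.0139) and the fibroblast gene Mfap5 (log2 0.74, edgeR adjusted p = 0.0212). With total counts Cdh5, C1qa and C1qb were called higher as well. The part of these other cell types in the members' difference was not tested. The call of Pi16 was lost in 5 of the fits that left out 1 library and that of Itgb4 also in 5. Both were lost under the muscle covariate, where Pi16 went from 0.79 to 0.17 and Itgb4 from -0.57 to -1.09 on the log2 scale. Pi16 also lost its call with the adipocyte covariate (log2 0.56, edgeR adjusted p = 0.0642). Itgb4 lost its call with total counts as well (log2 -0.45, edgeR adjusted p = 0.0885).

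Enzymes after squalene epoxide were lower too. Of 11 enzymes of late sterol synthesis, 10 were called lower and 0 higher, beside 6.17% of all tested genes called lower. Their median log2 fold change was -1.66, close to that of the 9 members. Under the muscle covariate 6 of the 11 were called. Tm7sf2, a sterol reductase of the endoplasmic reticulum, fell 4.82-fold, from 84.3 ± 9.23 CPM in WT to 17.5 ± 2.61 CPM in cKO (SD, n = 3). Msmo1, Cyp51 and Nsdhl, which act in the demethylation of lanosterol, fell 3.61-fold, 3.27-fold and 2.66-fold. The member that was not called was Lbr, a nuclear envelope protein that also carries the sterol reductase activity of Tm7sf2. It stood at 51.1 to 58.8 CPM in cKO and 52.6 to 60.1 CPM in WT (log2 -0.07 ± 0.09, edgeR adjusted p = 0.714), a direction that was positive with total counts and with the muscle or adipocyte level as a covariate.

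The other branches from isoprenoid units held no calls by edgeR. Of 18 genes that lead to dolichol, ubiquinone, prenylated proteins and modified transfer RNA, 0 were called in either direction, with 5 at an unadjusted p under 0.05, while 10.9% of all tested genes were called. DESeq2 called 2 lower and 0 higher, and limma-voom 0. With total counts edgeR called 1 higher. Their log2 fold changes ran from -0.29 to 0.22 with a median of -0.13. The summed level of these 18 was 1042 to 1093 CPM in cKO and 1046 to 1085 CPM in WT, so these sums overlapped. Fnta held the largest part of the sum and went against most, at 442.5 to 525.7 CPM in cKO and 410.7 to 417.4 in WT. Of the 18, 13 had a negative log2 fold change. In 7 all cKO libraries lay below all WT libraries and in 2 above, beside 15.8% and 15.3% of all tested genes.

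Among these 18, Fntb, a subunit of farnesyltransferase, stood at a log2 value of -0.29 ± 0.09 (edgeR adjusted p = 0.0664), and Nus1, a subunit of the enzyme that makes the dolichol chain, one of -0.28 ± 0.08 (edgeR adjusted p = 0.0641). These were the genes that DESeq2 called. Rabggtb, a subunit of the transferase that modifies Rab proteins, stood at 0.22 ± 0.09, and Zmpste24, a protease of prenylated proteins, at -0.21 ± 0.09. Whether the 18 genes differ from the 9 members in their response was not tested.

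**Figure D3:**
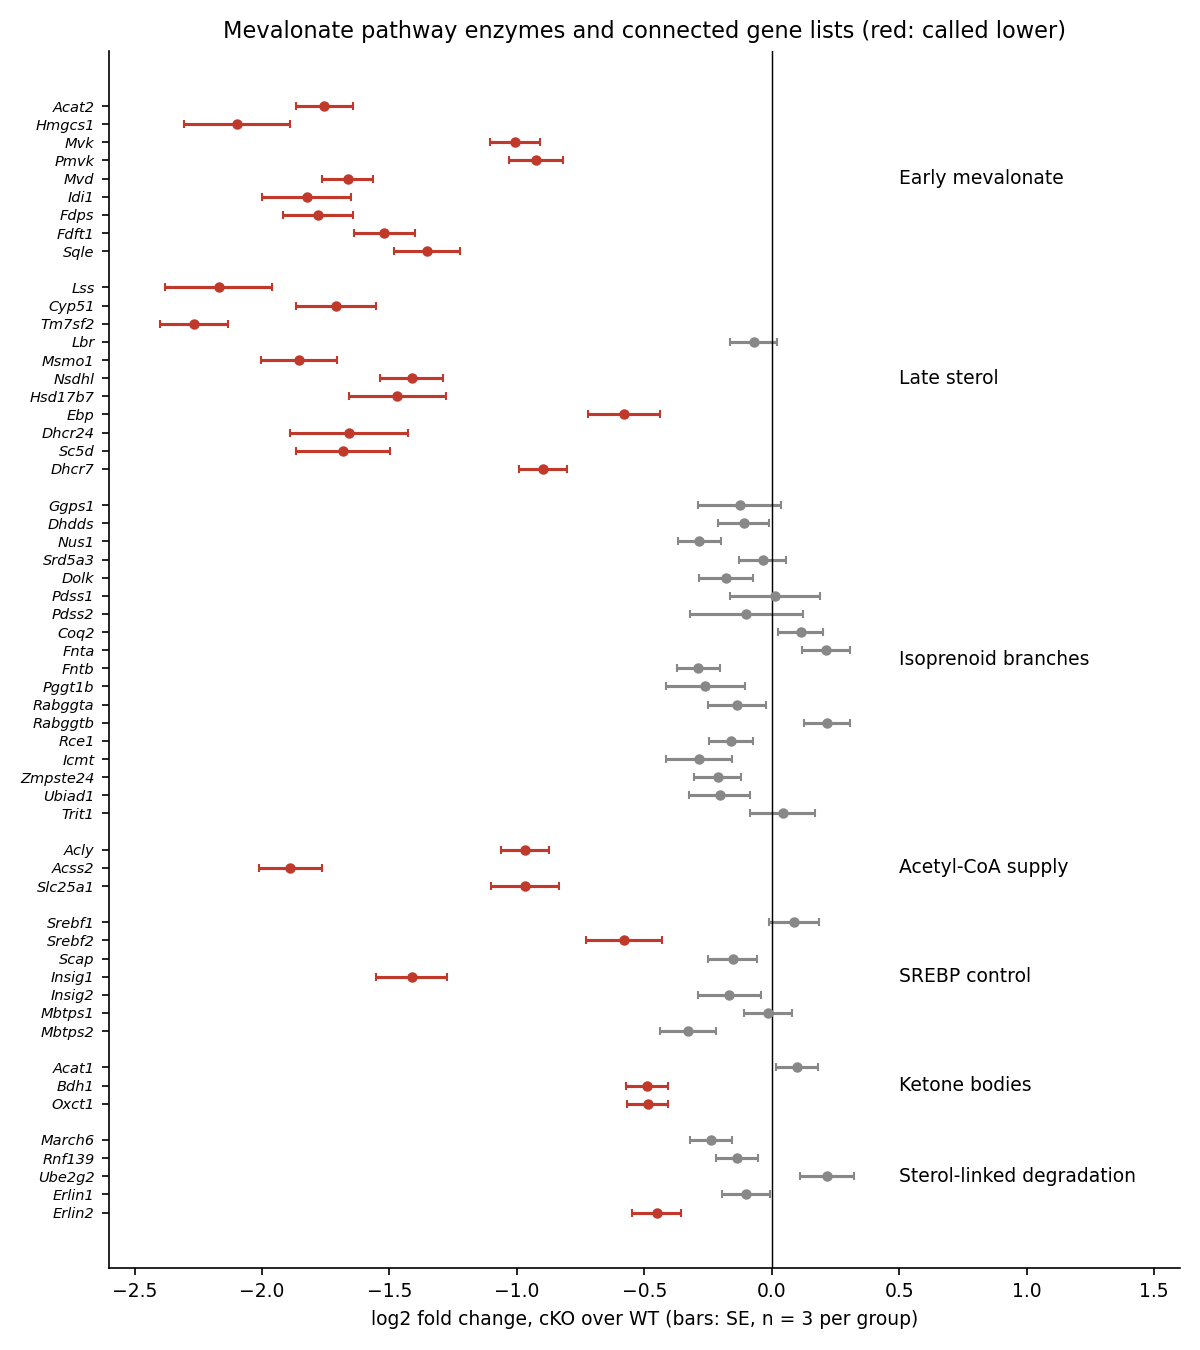
log2 fold change (cKO over WT, points) with SE (bars, n = 3 per group) of the 9 enzymes and of 6 connected gene lists, red where edgeR called the gene lower. The 9 enzymes lie between -2.10 and -0.92, the late sterol enzymes except Lbr are also red, and the 18 genes of the isoprenoid branches lie between -0.29 and 0.22.

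Upstream of the pathway, all 3 genes that supply cytosolic acetyl-CoA were called lower, beside 6.17% of all tested genes. Acss2, which makes it from acetate, fell 3.7-fold from 61.0 ± 8.84 CPM in WT to 16.5 ± 1.17 CPM in cKO. Acly, which makes it from citrate, went from 270.0 ± 6.69 to 138.1 ± 12.7 CPM, and Slc25a1, the mitochondrial citrate carrier, from 166.4 ± 27.1 to 85.1 ± 9.90 CPM, both 1.96-fold. Slc25a1 lost its call with the muscle level as a covariate (edgeR adjusted p = 0.0845), where its log2 value was -1.21 ± 0.26 against -0.97 ± 0.13.

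Among 7 genes of SREBP control, 2 were lower and 0 higher, beside 6.17% of all tested genes called lower, and the list's median log2 fold change was -0.17. Insig1, which holds the SREBP escort in the endoplasmic reticulum and is itself induced by SREBP, fell 2.66-fold, from 241.7 to 302.0 CPM in WT to 82.4 to 115.0 CPM in cKO. Srebf2 fell 1.49-fold (log2 -0.58 ± 0.15, edgeR adjusted p = 0.0386), less than any of the 9 enzymes in size. Its call was lost without cKO 1, cKO 3, WT 1 or WT 2 and with total counts (edgeR adjusted p = 0.0813, 0.136, 0.0849, 0.108 and 0.0925), and with the muscle or adipocyte level as a covariate (edgeR adjusted p = 0.381 and 0.107). Its log2 value was -0.81 ± 0.29 with the muscle covariate and -0.51 ± 0.18 with the adipocyte covariate. Scap, the escort, and Mbtps2, a protease that releases SREBP, had log2 fold changes of -0.15 ± 0.10 and -0.33 ± 0.11 and did not pass.

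Of 3 genes of ketone body metabolism, 2 were lower and 0 higher, with a median log2 value of -0.49, beside 6.17% of all tested genes called lower. Under the muscle covariate 0 of the 3 were called. Oxct1 and Bdh1, which act in the use of ketone bodies, each fell 1.4-fold, calls that were lost with the muscle level as a covariate (edgeR adjusted p = 0.323 and 0.436). Their log2 values there, -0.52 ± 0.17 and -0.46 ± 0.18, were about as large as with group alone, -0.49 ± 0.08 for each. Of 5 genes that act in the sterol-linked breakdown of proteins of the endoplasmic reticulum, Erlin2 was lower (log2 -0.45 ± 0.10, edgeR adjusted p = 0.0175) and 0 were higher. The share of 6.17% of all tested genes called lower stands beside this list too. The call of Erlin2 was lost without cKO 2 or WT 2 and with total counts (edgeR adjusted p = 0.0552, 0.0682 and 0.0739). It was also lost under the muscle covariate (edgeR adjusted p = 0.52), where its log2 value was the same and less precise (-0.45 ± 0.20). March6, Ube2g2 and Rnf139, all of the ubiquitin system, had log2 fold changes of -0.24 ± 0.08, 0.22 ± 0.11 and -0.14 ± 0.08 and did not pass. Ube2g2 was called higher with the adipocyte level as a covariate.

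The genes most like the members were sought by the root mean square difference between a gene's log2 CPM profile over the 6 libraries and the mean profile of the 9, each centred on its own mean. Among genes whose mean log2 CPM was 3 or more, the closest were Ptprt, a receptor tyrosine phosphatase (0.0448), Mal, a lipid raft protein of myelin (0.049), the kinase Nek1 (0.0549), Tmem189 (0.0564) and Slc7a2, a carrier of cationic amino acids (0.0573). Among the members themselves Fdft1 was nearest to the mean profile, at 0.043, and Pmvk farthest, at 0.318, while the median of all other tested genes was 0.82. Likeness over 6 libraries in 2 groups is set mainly by the difference between the groups and is a description only.

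The falls were compared across the ways of processing the counts. In 19 alternatives for Acat2 and 18 for each other member, every log2 fold change was negative. Hmgcs1 ranged from -2.64 to -1.91, the widest range, and Mvk from -1.11 to -0.88. All 9 were called lower with every library left out in turn, with each library thinned to the depth of the shallowest, with other size factors, and by DESeq2 and limma-voom.

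**Figure D4:**
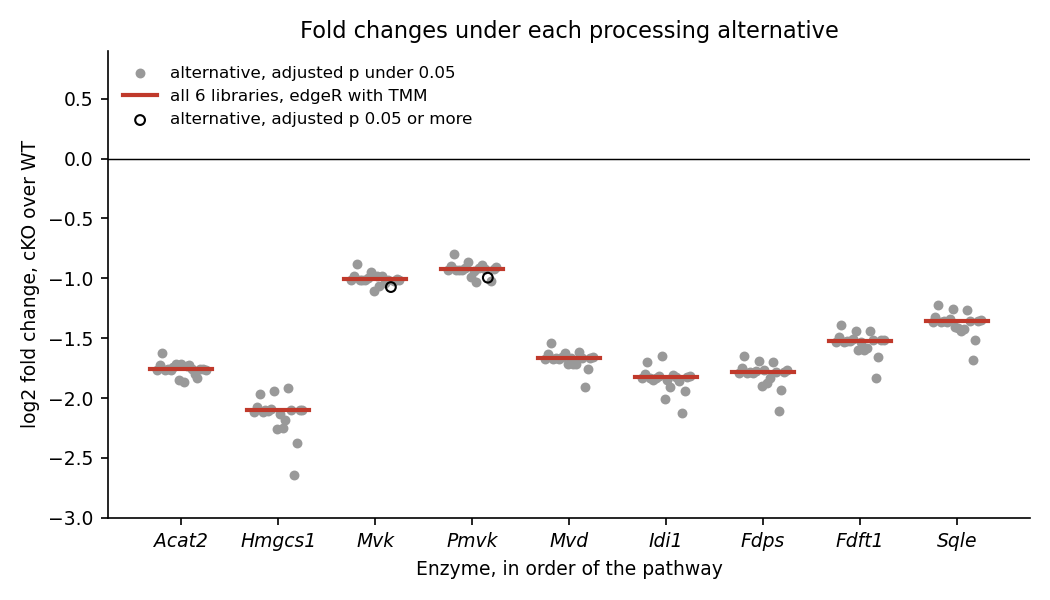
log2 fold change of each enzyme (cKO over WT) with all 6 libraries (red line) and under each alternative (points, open where the adjusted p was 0.05 or more). No value lies at or above 0, and the open points are Mvk and Pmvk with the muscle level as a covariate.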

How the data were processed

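Total RNA of 6 sciatic nerve samples was prepared for sequencing with an Illumina TruSeq kit for RNA, per the labels' protocols. In each deposited file are whole-number read counts, not normalized, by gene symbol. The submitters' processing notes name TopHat2 2.0.13, HTSeq and the build mm10, and neither the annotation nor the strand setting is stated in the sources used here. HTSeq's closing lines were left out of library sizes. They held 12.07% to 14.26% of counts as reads in no gene and 1.635% to 2.818% as ambiguous reads.

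Counts were tested with edgeR 4.0.16 (quasi-likelihood F test, TMM factors, filterByExpr with a minimum count of 10, group as the only term) in R 4.3.3 on all 14789 genes that passed, with Benjamini-Hochberg adjustment over all of them and a threshold of 0.05. Each SE was derived as |log2 fold change| over √F. RPKM used the union of GENCODE M21 exons, which has the same assembly as mm10. Log2 CPM profiles used a prior count of 2. Library pairs of a group differed by more than counting noise (chi-square at least 11.49 per degree of freedom). Mice were separate per the design text, and if nerves were pooled the p-values measure the spread between pools. The pipeline was tested on simulated data.

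The members and lists were chosen with earlier results of these data known. Besides the members, up to 4 genes of each pathway list and up to 3 of each marker list were named in order of p, with Sox10, Yap1, Wwtr1 and the 5 most similar genes. Lbr, Acat3, Idi2, Mmab, Ctsb and Fnta were named outside this rule, after their values were seen. Fnta was not followed by name under the alternatives. Some genes of the pathway and of the lists are not reported here. Alternatives were other size factors, DESeq2 1.42.0, limma-voom (limma 3.58.1), other filters, left-out libraries, a replicate block, muscle or adipocyte covariates, and thinning.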

Additional observations from a re-analysis of the deposited data

How the results depend on the processing

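The 9 members were called lower in all alternatives except the muscle covariate, which called 7, and 0 were called higher in any. With that covariate Mvk stood at -1.07 and Pmvk at -0.99 (log2), the members' median at -1.83, genes called lower at 116 and higher at 16, late sterol genes called lower at 6, SREBP control at 1, and ketone body and degradation genes at 0 each. Signs turned there without a call for S100b (-0.12), Fabp4 (-0.33), Plin1 (-0.86), Lipe (-0.52), Pecam1 (-0.10), Sox10 (0.0193) and Lbr (0.12), and with the adipocyte covariate for Sox10 (0.0327) and Lbr (0.0173). The cause was not tested. The adipocyte covariate gave 1 SREBP control gene lower and 1 degradation gene higher.

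With total counts, where the median of all genes moved from 0.02 to 0.15, genes called lower were 606 and higher 1273 (against 912 and 706), the members' median was -1.54, Lbr turned to 0.0513, 1 gene of the isoprenoid list was higher, 1 SREBP control gene was lower and 0 degradation genes were lower. DESeq2 called 2 isoprenoid genes lower.

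Leaving out 1 library gave 459 to 1120 genes called lower, the fewest without cKO 3 (575 without WT 2), and 276 to 1075 called higher (276 without cKO 3, 395 without cKO 2, 409 without WT 2, 449 without WT 1 and 1075 without WT 3). SREBP control genes called lower were 1 to 2 and degradation genes 0 to 1. The replicate block called 643 genes lower and 461 higher, with 9 members lower and 1 SREBP control gene lower, and the calls of Srebf2, Mmab, Gpr37l1, Itgb4 and Wwtr1 were lost. Same-numbered libraries correlated at -0.207, -0.122 and 0.072 in their deviations from the group means, so the numbers were not taken as pairs.

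With the longest transcript as length, mean levels in RPKM for cKO and WT were 26.0 and 87.7 for Acat2, 148.6 and 637.3 for Hmgcs1, 22.4 and 45.0 for Mvk, 38.3 and 72.6 for Pmvk, 52.1 and 178.8 for Fdps, 23.8 and 68.2 for Fdft1, and 23.5 and 59.9 for Sqle, and 264.3 for Idi1 in WT. Because length only rescales a gene, its fold change is the same. Acat2 then ranked above Mvd in both groups, Pmvk above Fdft1 in WT and Sqle above Mvk in cKO. Of 1020 values of 57 other named genes under the alternatives, 943 kept direction and side of the threshold. The 5 most similar genes were the same with no floor on level. Depth sets a limit of 0.0638 to 0.122 counts per 1000000 gene counts, without TMM factors, on a count of 0, far under the level of every member.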
